A study of Mus musculus with 20 samples.

Results

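The E proteins and their Id inhibitors were described across the open chromatin, histone marks and Tcf4 occupancy of Nkx2.1 lineage cells with and without Tcf4. They were 7 genes of 21911 protein-coding genes, the E protein genes Tcf3, Tcf4 and Tcf12 and the inhibitor genes Id1, Id2, Id3 and Id4. The members were taken by name. Of the 32120 consensus ATAC regions in the authors' table, 30 were annotated to one of the 7 genes, 9 to Tcf4, 6 to Id2, 4 to Tcf12, 3 each to Tcf3, Id1 and Id3, and 2 to Id4. Peaks of the histone marks and of Tcf4 were taken within each gene body and 5 kb on each side, and 8 of 1205 footprint motifs carried a member's name in any case.

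E proteins are class I basic helix-loop-helix transcription factors that bind the E-box, CANNTG, as homodimers or with tissue-restricted class II partners such as Olig2. Id proteins keep the helix-loop-helix that pairs with E proteins but lack the basic region that contacts DNA, so an E protein held by an Id protein does not bind its sites. Id genes are well-known targets of BMP signalling through SMAD proteins, and Id activity in glial progenitors holds back oligodendrocyte differentiation.

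Cells expressing GFP were sorted from the neocortices of pups at postnatal day 7 or 8, at 50000 cells for each ATAC-seq or histone Cut&Tag library and 200000 nuclei for each Tcf4 library. WT animals carried Nkx2.1-Cre with the Cre reporter Ai3, and Tcf4 cKO animals carried Tcf4 f/f, Nkx2.1-Cre and Ai3, so that Cre, driven by a gene of ventral progenitors, was present in both. In the Tcf4-tag line Tcf4 made from its own locus carries Flag/HA as a C-terminal tag that appears only after Cre, and anti-Flag Cut&Tag was made in Nkx2.1 lineage cells with no untagged control. Each assay had 2 libraries per genotype, and the labels do not say that they came from separate animals, so p-values measure the spread between these libraries, which may be technical. An exact permutation test of 2 against 2 libraries cannot go below p = 0.333, and the tests below are limma fits across all regions of an assay. Which part of Tcf4 the floxed allele removes is not given in the sources used here, and open chromatin over the gene does not measure its transcript, so these lists do not check the deletion.

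The libraries held 54162 to 72308 ATAC peaks, 51510 to 72790 H3K4me1 peaks, 22026 to 28413 H3K27ac peaks, 15085 to 19182 H3K27me3 peaks, and 28606 and 16834 Tcf4 peaks. Both Tcf4 cKO libraries held more H3K4me1 peaks than both WT libraries, and WT replicate 2 held the most ATAC peaks. Read depth is unknown, so a region without a called peak was not detected at this depth rather than shown to be closed. Of 6 oligodendrocyte lineage markers, 4 (Olig1, Olig2, Sox10 and Gpr17) had an ATAC peak within 1 kb of the gene start in all 4 libraries, against 3 of 7 interneuron markers, 4 of 6 astrocyte, 3 of 6 microglia, 3 of 6 endothelial and 0 of 6 projection neuron markers. Some of these differed between the libraries of the genotypes. Projection neuron starts with a peak numbered 1 and 2 in the WT libraries and 0 and 0 in Tcf4 cKO. Mean fold enrichment at interneuron starts, a missing peak taken as 0, was 3.59 and 2.95 in WT and 2.81 and 2.40 in Tcf4 cKO, and the astrocyte, microglia and endothelial means were also lower in both Tcf4 cKO libraries, whereas the oligodendrocyte means overlapped. Some gaps were small. Microglia had 3.81 and 3.82 in WT against 3.78 and 3.28 in Tcf4 cKO, and astrocyte 3.73 and 4.23 against 3.42 and 3.72. Among all single ATAC regions, 34.7% were lower in both Tcf4 cKO libraries and 12.9% higher. The part of these marker differences in the results below was not tested. The cells are a mixture, and a smaller share of cells with an open region cannot be told apart from a less open region in every cell.

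At the region nearest each gene start, the authors' means differed by less than 0.5 between genotypes, most at Id4 (-0.45). Among the 30 member regions the largest differences in the authors' means lay at distal regions of Id2 and inside Tcf12. A region inside Tcf4 that is annotated to no gene differed by -1.09. The authors' mean accessibility, a log2 level per region given once for each genotype and so without an error, was lower in Tcf4 cKO in 25 of the 30 member regions and higher in 5, beside 63.5% lower over all regions. The median difference was -0.25 in the members and -0.10 over all regions. A difference over 0.5 in size was reached by 5 member regions, 1 higher in Tcf4 cKO and 4 lower, which belong to the 3 genes Id2, Tcf12 and Tcf4. Over all regions 8.38% were higher and 12.6% lower by that much. MACS2 fold enrichment, the height of a peak's summit over the local background, was lower in both Tcf4 cKO libraries than in both WT libraries at 15 of the 30 regions and higher in both at 6, beside 34.7% and 12.9% of all regions. In the limma fit of log2 fold enrichment, with libraries centred on their medians, 1 member region was lower in Tcf4 cKO at an adjusted p under 0.05 and none was higher, beside 1.09% and 0.601% of all regions.

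**Figure D1:**
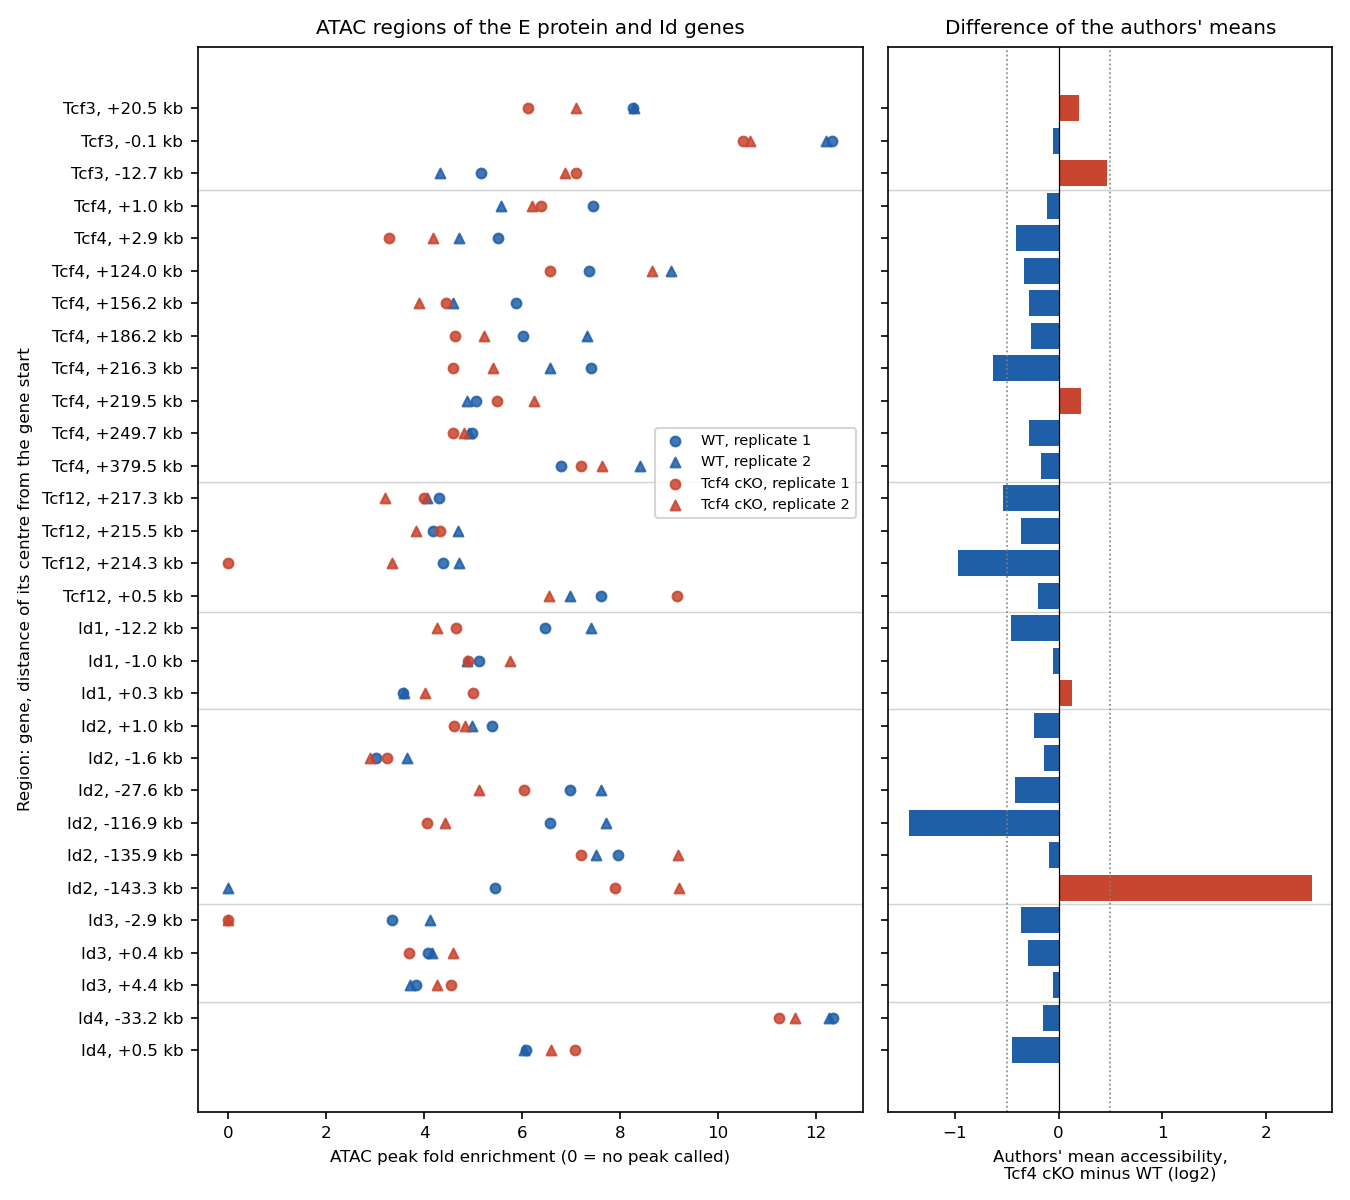
ATAC peak fold enrichment (no unit, x axis, left) in each library at the 30 member regions, named by gene and by the distance of the region's centre from the gene start, with WT in blue and Tcf4 cKO in red, and (right) the authors' mean log2 accessibility in Tcf4 cKO minus WT, with dotted lines at 0.5 on either side of 0. The regions of Id3 at -2.9 kb, with no peak in either Tcf4 cKO library, and of Id2 at -116.9 and -143.3 kb stand apart.

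Id3, a BMP-responsive inhibitor (chr4:136143497-136145755 on the plus strand, mm10), had the 1 ATAC region that passed the test. This region, chr4:136140349-136140853, is intergenic and centred at -2.9 kb from the gene start. Its fold enrichment was 3.34 and 4.12 in WT, and no peak was called in either Tcf4 cKO library. The fitted log2 difference was -1.80 ± 0.20 (SE), with limma and Benjamini-Hochberg adjustment giving an adjusted p of 0.0055, and its size depends on the value of 1 given to a missing peak. With quantile normalization the difference was -1.39 and the region no longer passed the test. Peaks in both WT libraries and neither Tcf4 cKO library were found in 1.02% of all regions. The authors' mean there was 7.17 in WT and 6.81 in Tcf4 cKO, a difference of only -0.36, so reads were still present in Tcf4 cKO where no peak was called. The region at the gene start, at +0.4 kb, had 4.08 and 4.16 in WT and 3.69 and 4.59 in Tcf4 cKO, and the genotypes overlapped.

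Id2, expressed in many neural progenitors (chr12:25093799-25097140 on the minus strand), held the 2 largest differences in the authors' means. At chr12:25213693-25214463, -116.9 kb from the gene start, fold enrichment was 6.58 and 7.71 in WT and 4.05 and 4.42 in Tcf4 cKO. Both Tcf4 cKO libraries lay below both WT libraries, with a log2 difference of -0.66 ± 0.17 (SE, limma adjusted p = 0.23), and the authors' mean was 6.43 in WT and 4.98 in Tcf4 cKO. At chr12:25239781-25241062, -143.3 kb, the order was the opposite. There WT replicate 1 had 5.45, WT replicate 2 had no peak, and Tcf4 cKO had 7.91 and 9.20. The authors' mean was 4.80 in WT and 7.25 in Tcf4 cKO, and the log2 difference in fold enrichment was 1.96 ± 0.75 (SE, limma adjusted p = 0.36), with the spread between the WT libraries larger than that between the Tcf4 cKO libraries. Both regions are intergenic, and Id2 is the gene the table gives them as the nearest. Another region, at -135.9 kb, had overlapping values of 7.96 and 7.50 in WT and 7.20 and 9.17 in Tcf4 cKO. At the gene start, +1.0 kb, the authors' mean was 9.36 and 9.13, and fold enrichment was 5.39 and 4.98 against 4.61 and 4.83.

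Id1 (chr2:152736251-152737410, plus strand), the inhibitor most often read as a BMP target, had its lower ATAC values upstream. The region at chr2:152723670-152724398, -12.2 kb from the gene start, had 6.46 and 7.41 in WT and 4.65 and 4.27 in Tcf4 cKO, groups that did not overlap, with a log2 difference of -0.54 ± 0.17 (SE, limma adjusted p = 0.29). The authors' mean was 5.59 and 5.13. At the gene start, +0.3 kb, both Tcf4 cKO libraries were above both WT libraries, at 5.0 and 4.03 against 3.57 and 3.60, with a log2 difference of 0.41 ± 0.21 (SE, limma adjusted p = 0.48). A further promoter region, at -1.0 kb, had overlapping values of 5.12 and 4.88 in WT and 4.89 and 5.76 in Tcf4 cKO.

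Id4 (chr13:48261228-48266026, plus strand), an Id protein of neural progenitors, had a wide region over its start with 6.07 and 6.05 in WT and 7.09 and 6.60 in Tcf4 cKO, while the authors' mean was lower in Tcf4 cKO, at 8.97 against 9.42. These measures go opposite ways in a region of 2319 bp, the first being a summit height and the second a sum over the region. The log2 difference in fold enrichment was 0.26 ± 0.16 (SE, limma adjusted p = 0.55). The region at chr13:48227654-48228483, at -33.2 kb in an intron of a neighbouring transcript, was among the most enriched of the members in all 4 libraries, at 12.3 and 12.3 in WT and 11.2 and 11.6 in Tcf4 cKO.

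Among the E proteins, Tcf12, the broadly expressed HEB, had 2 internal regions with authors' means lower by over 0.5. Tcf12 lies at chr9:71842688-72111871 on the minus strand. At chr9:71897377-71897783, +214.3 kb, fold enrichment was 4.38 and 4.72 in WT, with no peak in Tcf4 cKO replicate 1 and 3.35 in replicate 2. The authors' mean there was 6.58 and 5.61, and the log2 difference in fold enrichment was -1.22 ± 0.53 (SE, limma adjusted p = 0.41). The second, chr9:71894350-71894869 at +217.3 kb, had 4.30 and 4.06 against 4.0 and 3.20, and authors' means of 6.49 and 5.95. At the gene start, +0.5 kb, values overlapped, at 7.61 and 6.98 in WT and 9.16 and 6.55 in Tcf4 cKO.

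Tcf3, which encodes E12 and E47 (chr10:80409514-80433647, minus strand), had the most enriched start of the 7 genes. Fold enrichment there was 12.3 and 12.2 in WT and 10.5 and 10.6 in Tcf4 cKO, with a centred log2 difference of -0.12 ± 0.10 (SE, limma adjusted p = 0.70), and the authors' means of 9.21 and 9.16 were close. An intergenic region at -12.7 kb had 5.17 and 4.33 in WT and 7.09 and 6.88 in Tcf4 cKO, with a log2 difference of 0.65 ± 0.20 (SE, limma adjusted p = 0.28).

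Tcf4 itself, a gene of 345.724 kb on the plus strand (chr18:69343356-69689079) with several promoters, had a peak in all 4 libraries at each of its 9 regions. This was common, as 94.6% of all 32120 consensus regions had a peak in all 4 libraries. The region nearest the annotated start, +1.0 kb, had 7.45 and 5.56 in WT and 6.38 and 6.19 in Tcf4 cKO, which overlapped. Its internal region at +216.3 kb had 7.41 and 6.58 in WT and 4.59 and 5.40 in Tcf4 cKO, with authors' means of 8.11 and 7.48 and a log2 difference of -0.40 ± 0.19 (SE, limma adjusted p = 0.46). A larger difference stood in a further region inside the gene, chr18:69536592-69538016, that the table gives to no gene. It had 7.68 and 8.33 in WT and 4.31 and 4.93 in Tcf4 cKO, authors' means of 7.69 and 6.60, and a log2 difference of -0.70 ± 0.17 (SE, limma adjusted p = 0.18).

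To compare levels between genes, the authors' WT means at the gene starts were taken per kb of region. On this log2 scale Id2 was highest at 9.49, followed by Tcf4 at 8.68, Tcf3 at 8.63, Tcf12 at 8.29, Id4 at 8.21, Id3 at 8.20 and Id1 at 7.35. In Tcf4 cKO the values were 9.26, 8.57, 8.58, 8.09, 7.76, 7.90 and 7.48 in the same order of genes. The place of Id1 depends on the region used, as its promoter region at -1.0 kb had 8.20 in WT and 8.14 in Tcf4 cKO. As the means carry no error, neighbours in this order could not be tested.

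Across each gene and its flanks, ATAC peaks covered less in both Tcf4 cKO libraries than in both WT libraries at 4 of the 7 members (Tcf4, Id1, Id3 and Id4) and more at none, beside 24.8% and 8.91% of 17413 genes with a peak.

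H3K27me3, the mark set by the polycomb repressive complex, was called at the Id genes and hardly at the E protein genes. All 4 Id genes had H3K27me3 regions found in at least 2 libraries, 5 in all, whereas Tcf4 and Tcf12 had no H3K27me3 peak in any library and Tcf3 had 1 peak of 377 bp in WT replicate 2. The mark was common, with a peak in at least 1 library at 11002 of 21911 genes, at 33 of 37 class II partners of E proteins, at 9 of 12 HES, HEY and related genes and at 17 of 19 BMP-SMAD genes. At Id1, chr2:152736152-152738406 covered the gene in both Tcf4 cKO libraries, over 2255 and 2098 bp, and in neither WT library. Mean fold enrichment over the region was 2.33 and 2.20 in Tcf4 cKO, and the log2 difference of 1.15 ± 0.13 (SE) had an unadjusted p of 0.0018 and an adjusted p of 0.055 in limma, just outside the threshold. Of all 16358 H3K27me3 regions, 10.9% were higher in Tcf4 cKO at an unadjusted p under 0.05, and 9.84% had peaks in both Tcf4 cKO libraries and neither WT library, so the Id1 pattern was a common one. No region in the assay passed at an adjusted p under 0.05, and 3244 did at an unadjusted p under 0.05. A second H3K27me3 peak, upstream of Id1 at the region at -12.2 kb, was called in all 4 libraries, at 2.13 and 2.09 in WT and 2.46 and 2.30 in Tcf4 cKO.

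At Id2 the length covered by H3K27me3 within the gene and its flanks was 2061 and 719 bp in WT and 2274 and 3969 bp in Tcf4 cKO. Id3 had 1154 and 0 bp in WT and 3154 and 812 bp in Tcf4 cKO, and Id4 had 3625 and 2896 bp against 4316 and 2976 bp, which overlapped. So 2 of the 5 members with any H3K27me3 peak, Id1 and Id2, had more covered length in both Tcf4 cKO libraries than in both WT libraries, and none had less. Among 11002 genes with an H3K27me3 peak 18.3% had more and 14.0% less. The region at the start of Id4 had a mean fold enrichment of 1.49 and 1.36 in WT and 2.24 and 1.67 in Tcf4 cKO (limma adjusted p = 0.42).

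H3K27ac, a mark of active promoters and enhancers, was called at the start of Id1 in Tcf4 cKO only. Its region chr2:152736145-152736663 had no peak in WT and 3.01 and 3.12 in Tcf4 cKO, with a log2 difference of 1.64 ± 0.21 (SE, limma adjusted p = 0.049). It was the 1 of 19 member regions that passed the test, higher in Tcf4 cKO, and none was lower, beside 3.84% higher and 5.92% lower over all 24901 regions. This call was lost when any 1 of the 4 libraries was left out, which gave 0 calls each time. Over the gene and 5 kb on each side, the mark covered 1063 and 1171 bp in WT and 0 and 537 bp in Tcf4 cKO at Id3. At Id4 it covered 1254 and 1294 bp in WT and 911 and 0 bp in Tcf4 cKO. The Id4 length in WT replicate 2 includes a peak at +7.7 kb, past the gene's end. The region at the Id4 start alone had 1254 and 1002 bp in WT and 911 and 0 bp in Tcf4 cKO. Both genes had less covered length in both Tcf4 cKO libraries, as did Tcf3, while Id1 had more. This was 3 of 7 members with less, and 20.7% of the 15548 genes with a peak had less and 10.6% more. At the Tcf3 start each WT library had a peak, but the peaks did not overlap each other, and Tcf4 cKO had none. The Tcf12 start kept the mark in all 4 libraries, at 4.39 and 4.06 in WT and 4.84 and 4.65 in Tcf4 cKO (limma adjusted p = 0.61).

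**Figure D2:**
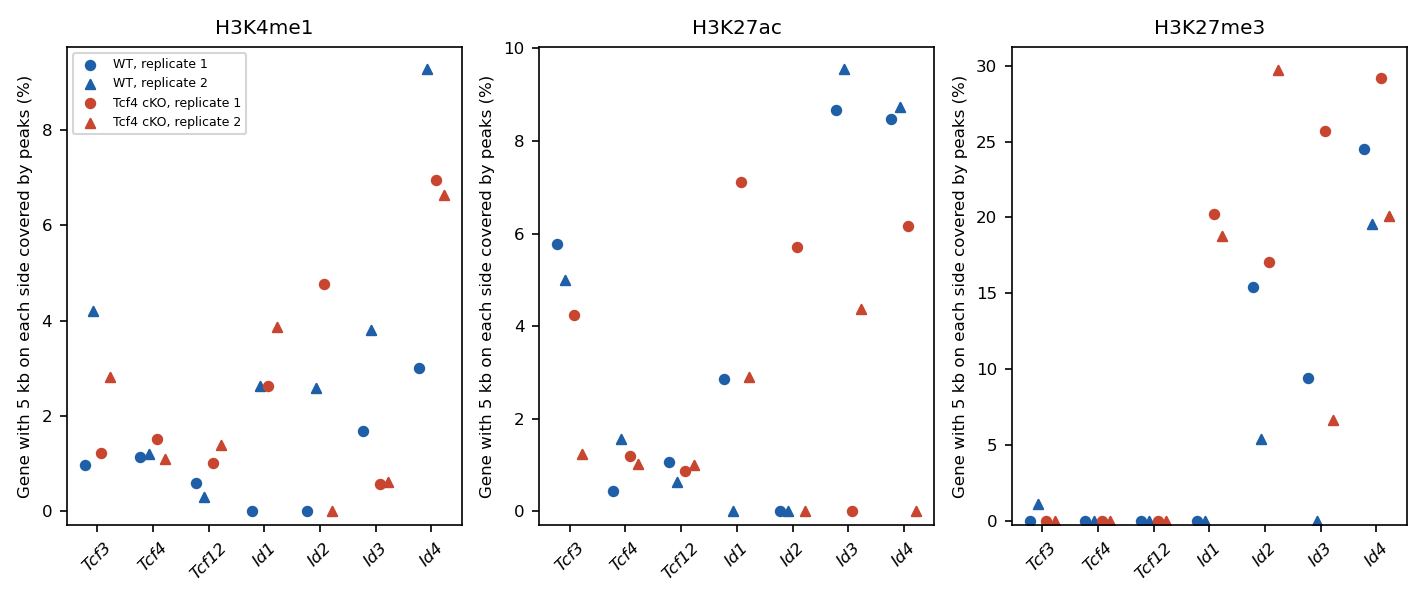
Share of each gene with 5 kb on each side that is covered by called peaks (percent, y axis) for H3K4me1, H3K27ac and H3K27me3, with 1 point per library, WT in blue and Tcf4 cKO in red. H3K27me3 lies on the Id genes, reaching 20.2% and 18.8% of Id1 in Tcf4 cKO and 0 in WT, and on none of the E protein genes beyond 1.1% of Tcf3 in 1 WT library.

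H3K4me1, which marks enhancers and promoter flanks, was higher in Tcf4 cKO at 4 of 15 member regions and lower at none, beside 12.1% higher and 4.25% lower over all 65510 regions. The 4 regions had no peak in WT and a peak in both Tcf4 cKO libraries. In Tcf12 they were chr9:71941715-71942320, at 4.11 and 5.34 in Tcf4 cKO (log2 difference 2.25 ± 0.35, limma adjusted p = 0.037), and chr9:72063000-72063720, at 3.72 and 3.87 (1.95 ± 0.23, limma adjusted p = 0.035). In Tcf4 they lay at +26.8 kb, at 3.62 and 3.54 (1.86 ± 0.20, limma adjusted p = 0.035), and at +230.6 kb, at 2.77 and 2.51 (1.42 ± 0.11, limma adjusted p = 0.035). ATAC peaks that were not consensus regions overlapped chr9:71941715-71942320 in WT replicate 2 (3.87) and Tcf4 cKO replicate 2 (4.75). The Tcf4 region at +26.8 kb had such a peak in WT replicate 2 (3.66). None of the 4 H3K4me1 regions overlapped a consensus ATAC region or a Tcf4 peak. No call remained without WT replicate 1, without WT replicate 2 or without Tcf4 cKO replicate 1, and 3 were made without Tcf4 cKO replicate 2. The Tcf4 start, +0.8 kb, had 5.17 and 5.91 in WT and 4.57 and 4.20 in Tcf4 cKO (log2 difference -0.31 ± 0.11, limma adjusted p = 0.31), and the Id4 start, +1.1 kb, had 3.67 and 4.18 in WT and 4.97 and 4.78 in Tcf4 cKO (0.34 ± 0.11, limma adjusted p = 0.26). In both of these the genotypes did not overlap. The length covered by H3K4me1 was 1618 and 835 bp in WT and 2806 and 3845 bp in Tcf4 cKO at Tcf12, and 205 and 467 bp in WT and 71 and 76 bp in Tcf4 cKO at Id3. These were the 2 members whose genotypes did not overlap, beside 39.9% of genes with more and 4.56% with less in both Tcf4 cKO libraries. At Id3 the window's edge cuts a peak centred at +7.4 kb that all 4 libraries had. Its fold enrichment was 3.12 and 3.07 in WT and 3.01 and 3.06 in Tcf4 cKO. Whole, it covered 338 and 515 bp in WT and 379 and 622 bp in Tcf4 cKO. The only other peak counted there was in WT replicate 2. The lower Id3 lengths thus follow from where the window ends and from that WT peak.

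**Figure D3:**
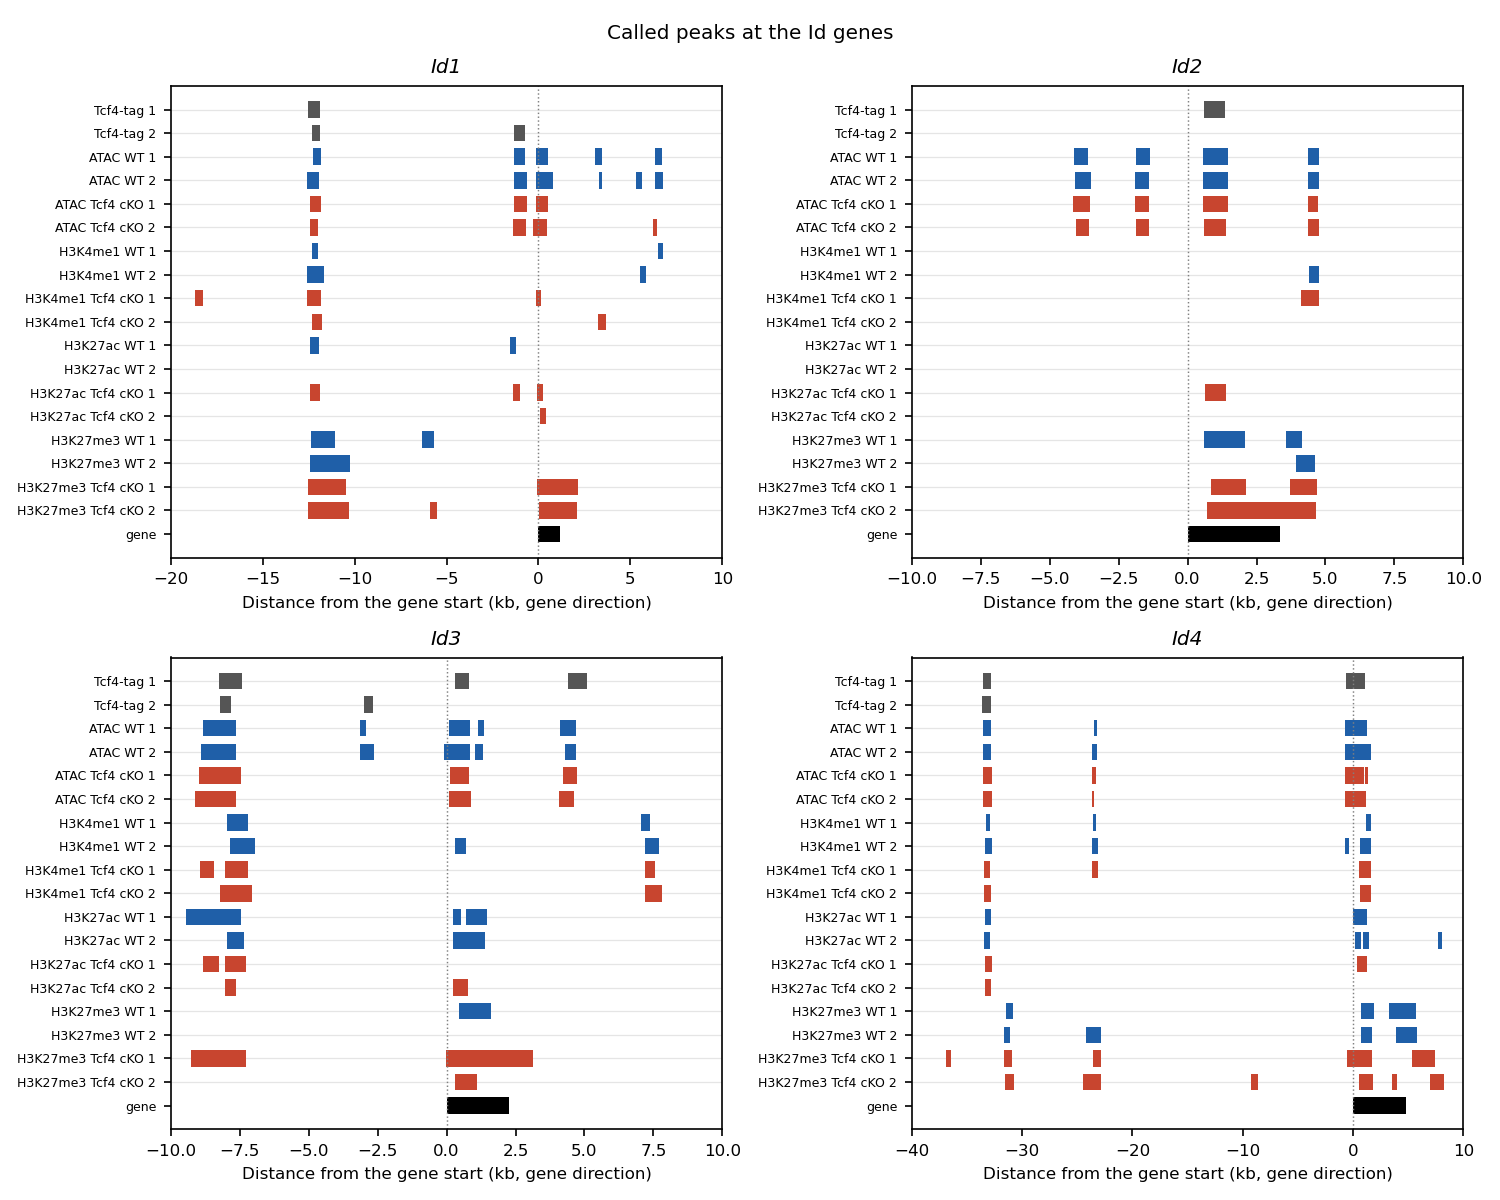
Called peaks at Id1, Id2, Id3 and Id4 by library (rows) against distance from the gene start (kb, x axis, in the direction of the gene), with Tcf4-tag in grey, WT in blue, Tcf4 cKO in red and the gene in black. Peaks narrower than 0.4% of a panel are drawn at that width. At Id1 the H3K27me3 peak over the gene is present in the Tcf4 cKO rows alone, and the upstream one is present in all 4.

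Tcf4 occupancy was then read at the same loci, to ask where the protein bound at the genes of its own family and its inhibitors. Peaks of both libraries were merged into 14089 reproducible regions. Tcf4 had 4 of them, Tcf12 had 3 and Tcf3 had 1, whereas none of the Id genes had one within 5 kb, although each had a peak in at least 1 library. Over all protein-coding genes 48.5% had a reproducible region in such a window, but windows differ in length, from 11.16 kb for Id1 to 355.724 kb for Tcf4. Per 100 kb, Tcf3 had 2.93 regions, Tcf4 had 1.12 and Tcf12 had 1.07, beside a median of 3.06 in the genes with at least 1 region. Among the 1071 genes with windows over 200 kb, 27.5% had at least 3 regions.

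At greater distance, the ATAC regions of Id1 at -12.2 kb and of Id4 at -33.2 kb held reproducible Tcf4 peaks, at fold enrichments of 3.73 and 5.75 for Id1 and 6.66 and 7.28 for Id4. The Id4 region carried H3K27ac in all 4 libraries, at 7.28 and 5.80 in WT and 6.76 and 5.93 in Tcf4 cKO, and H3K4me1 in all 4. Its accessibility was close to WT in Tcf4 cKO, with a centred log2 difference of -0.02 ± 0.10 (SE, limma adjusted p = 0.96). The Id1 region carried H3K4me1 in all 4 libraries. Further reproducible regions lay at -7.8 kb from Id3, with 4.47 and 4.59, and at +34.1 kb from the Tcf3 start, past the gene's end, with 4.85 and 5.56. These lay outside the rule for members and were chosen after their values were seen. The highest occupancy inside a member was in Tcf12 at +151.9 kb, at 7.32 and 6.98, where an ATAC region of 12.6 and 12.7 in WT and 11.8 and 11.4 in Tcf4 cKO and H3K27ac in all 4 libraries were found. The internal Tcf12 promoter region at +215.5 kb was occupied at 4.48 and 4.83, and its accessibility was 4.18 and 4.70 in WT and 4.32 and 3.83 in Tcf4 cKO (log2 difference -0.03 ± 0.19, limma adjusted p = 0.97). Inside Tcf4, the protein's own gene, the 4 occupied regions were internal. At +124.0 kb occupancy was 6.18 and 4.61 and accessibility 7.37 and 9.04 in WT and 6.57 and 8.65 in Tcf4 cKO (-0.02 ± 0.18, limma adjusted p = 0.97). At +156.2 kb occupancy was 5.66 and 3.83 and accessibility 5.87 and 4.60 in WT and 4.45 and 3.91 in Tcf4 cKO, which did not overlap (-0.23 ± 0.23, limma adjusted p = 0.76). The internal promoter at +249.7 kb was occupied at 4.72 and 6.43, with accessibility of 4.98 and 4.92 in WT and 4.6 and 4.81 in Tcf4 cKO (0.02 ± 0.18, limma adjusted p = 0.98). The last, at +193.4 kb with 4.35 and 4.93, lay in the region inside the gene whose lower accessibility in Tcf4 cKO is given above. The starts of Tcf3 (5.48 and 6.84) and Tcf12 (5.0 and 5.94) were also occupied. Of the 10 reproducible regions, the 8 on member regions of the ATAC table had authors' mean differences from -0.46 to -0.05, and the other two, which the table gives to no gene, had -0.33 inside Tcf12 and -1.09 inside Tcf4. By this measure all 10 were thus lower in Tcf4 cKO, beside 63.5% of all regions. The share over all Tcf4-occupied regions was not computed. In fold enrichment, the log2 differences were above 0 at the Tcf12 start (0.18) and at +249.7 kb of Tcf4 (0.02), and below 0 at the others. The region at -2.9 kb of Id3 had a Tcf4 peak in replicate 2 alone, at 3.34.

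**Figure D4:**
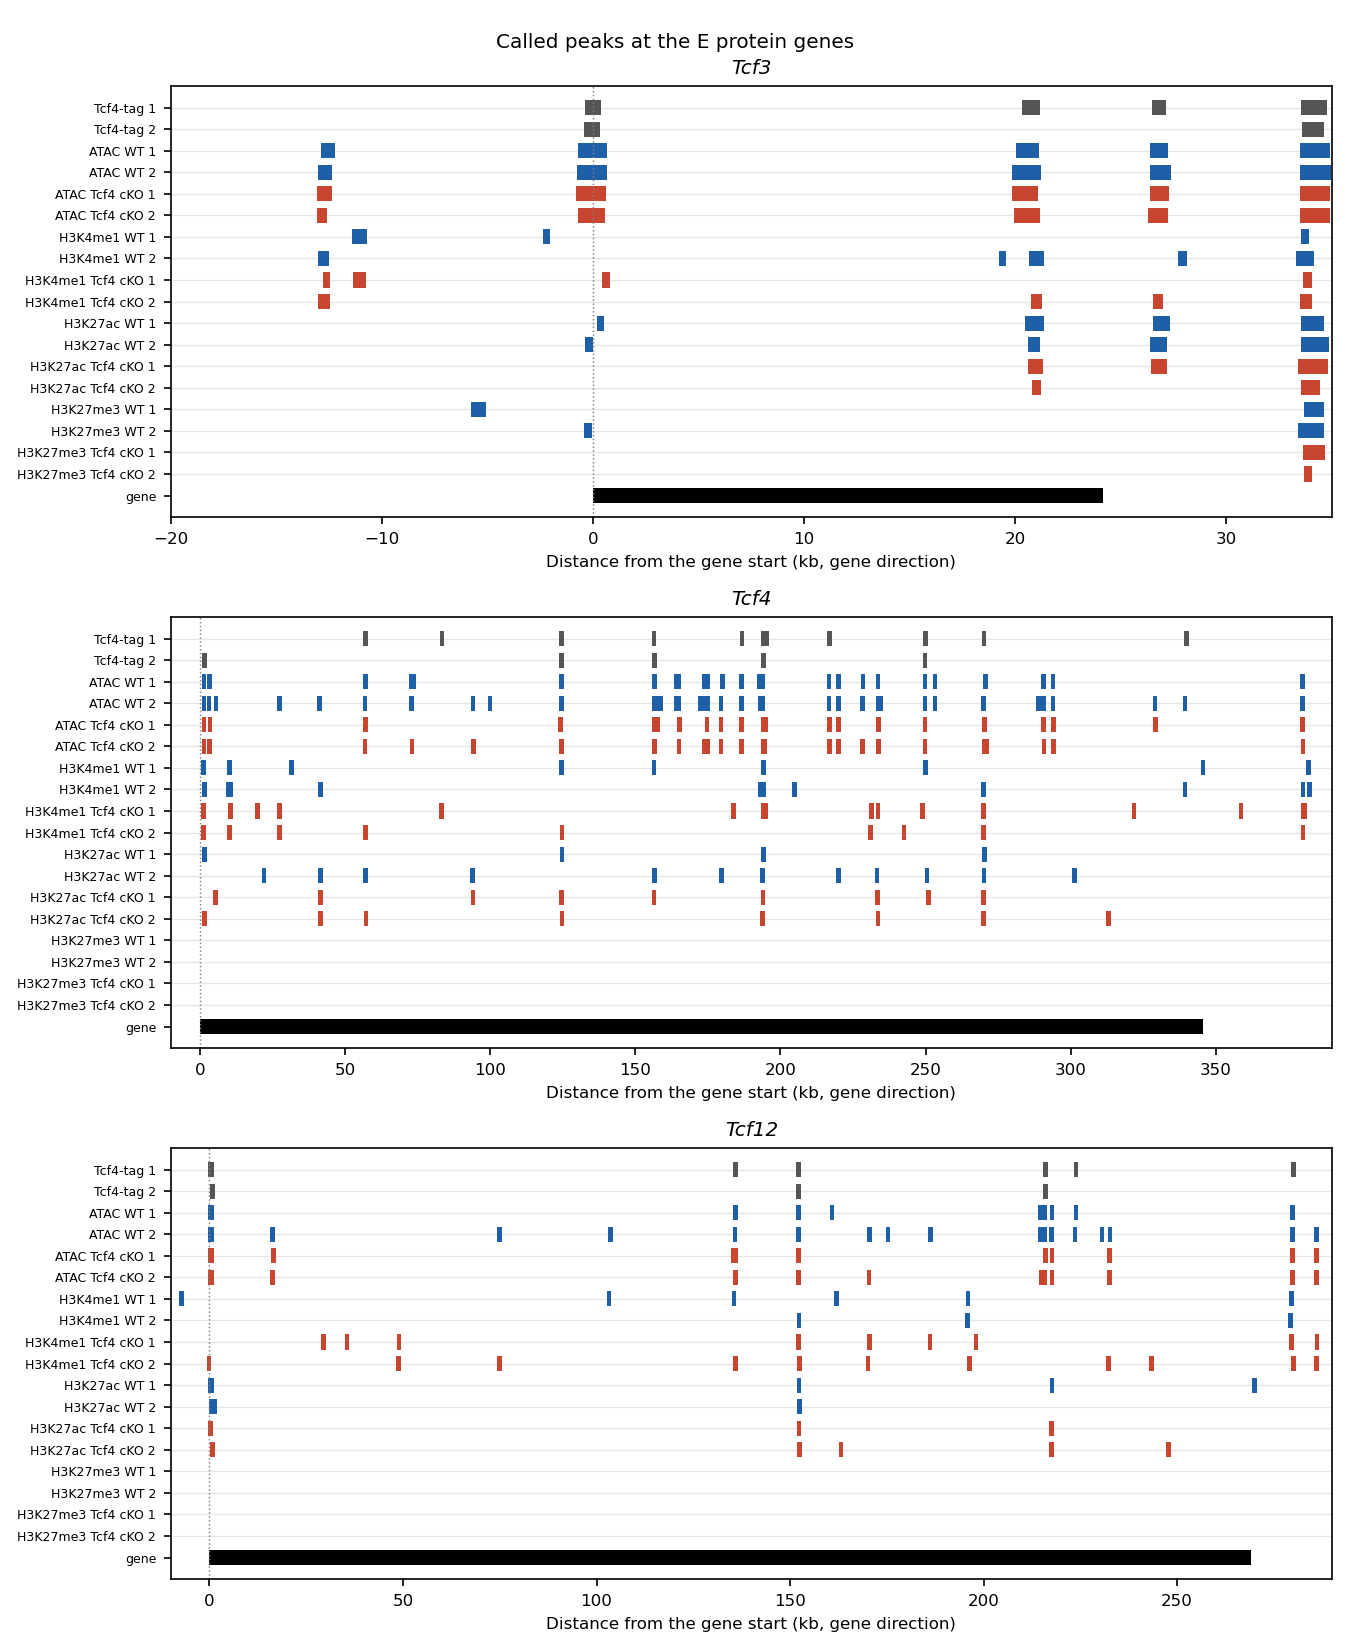
Called peaks at Tcf3, Tcf4 and Tcf12 by library (rows) against distance from the gene start (kb, x axis, in the direction of the gene), coloured as at the Id genes, with peaks narrower than 0.4% of a panel drawn at that width. Both Tcf4-tag libraries have peaks at the starts of Tcf3 and Tcf12 and at 4 places inside Tcf4, and no H3K27me3 peak is seen in Tcf4 or Tcf12.

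The sequences under the Tcf4 summits were read to see which E-box cores they held. The general core searched was CANNTG, which reads the same on both strands. It contains the other 3 motifs searched, each on both strands. One was CAGCTG. Another was CAGGTG, whose complement is CACCTG. The last was CAGATG, whose complement is CATCTG. Within 75 bp of the summit of the higher library, CANNTG was found in 4 of the 10 reproducible member regions, and CAGCTG in 1, CAGGTG in 1 and CAGATG in 2. Over 14085 reproducible regions the shares were 46.5%, 15.1%, 11.5% and 10.7%.

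Windows of 151 bases are given here on the plus strand of mm10, with every CANNTG in capitals. The first is the upstream region of Id1 (chr2:152724038-152724188), shown for its 3 CATCTG cores, and the next is the upstream region of Id4 (chr13:48228062-48228212), with 1 CAGCTG. The Tcf12 internal region (chr9:71959909-71960059) had the strongest occupancy and 1 core, CACATG, and the Tcf3 start (chr10:80433823-80433973) had none. The window at -2.9 kb of Id3 (chr4:136140542-136140692), where the ATAC peak was missing in Tcf4 cKO, held 2 CAGCTG cores under the summit of Tcf4 replicate 2.
Id1 upstream: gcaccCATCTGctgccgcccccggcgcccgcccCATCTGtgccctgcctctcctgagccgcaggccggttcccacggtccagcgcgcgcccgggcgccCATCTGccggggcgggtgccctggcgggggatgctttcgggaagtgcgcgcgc
Id4 upstream: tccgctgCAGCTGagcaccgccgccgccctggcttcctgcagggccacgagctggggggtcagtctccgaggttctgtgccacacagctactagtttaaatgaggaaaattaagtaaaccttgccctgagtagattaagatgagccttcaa
Tcf12 internal: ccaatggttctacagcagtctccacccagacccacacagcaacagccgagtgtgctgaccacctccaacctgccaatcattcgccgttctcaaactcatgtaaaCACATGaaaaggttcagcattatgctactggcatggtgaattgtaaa
Tcf3 start: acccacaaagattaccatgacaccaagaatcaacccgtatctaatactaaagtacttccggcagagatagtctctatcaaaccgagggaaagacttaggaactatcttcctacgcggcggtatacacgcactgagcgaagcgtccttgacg
Id3 upstream: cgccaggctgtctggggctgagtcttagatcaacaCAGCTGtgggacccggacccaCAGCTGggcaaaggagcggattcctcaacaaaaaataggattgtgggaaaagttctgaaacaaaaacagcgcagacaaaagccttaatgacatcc

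The centres of the distal Id2 regions are given in the same way, as the pair with opposite differences in accessibility. The region at -116.9 kb, less accessible in Tcf4 cKO (chr12:25214003-25214153), held 2 CANNTG, of which 1 was CAGATG, and the region at -143.3 kb, more accessible in Tcf4 cKO (chr12:25240347-25240497), held none. At the centres of all 32120 ATAC regions, 49.2% of windows of this length held CANNTG and 10.5% held CAGATG or its complement.
Id2 at -116.9 kb: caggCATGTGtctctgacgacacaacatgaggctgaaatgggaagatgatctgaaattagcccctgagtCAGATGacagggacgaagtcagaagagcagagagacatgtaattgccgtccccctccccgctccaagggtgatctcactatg
Id2 at -143.3 kb: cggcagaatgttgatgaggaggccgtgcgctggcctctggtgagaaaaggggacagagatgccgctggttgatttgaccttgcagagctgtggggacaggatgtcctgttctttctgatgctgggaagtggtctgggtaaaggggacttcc

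In RefSeq (GRCm38.p6) promoter windows of 250 bases before to 50 bases after a start, 7 entries matched Tcf3, Tcf12, Id2, Id3 and Id4. Their G and C content was 60.0% to 75.7%, except 36.3% for the internal Tcf12 promoter, beside a median of 52.7% over 32851 promoters. CAGCTG was found in 1 of the 3 Tcf12 entries and in the Id2 entry, and 16.3% of all promoters held it.

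Footprint scores, which are computed from ATAC signal at and around motif sites, were lower in Tcf4 cKO for all 8 motifs with member names. The authors computed them on 1 merged alignment per genotype, so there are no replicates and no test, and a motif is shared by many basic helix-loop-helix factors. The scores were not separated from accessibility, for which the authors' means were lower in Tcf4 cKO at 63.5% of regions. The Tcf12 motif MA0521.2 had mean scores of 0.283 in WT and 0.257 in Tcf4 cKO, a ratio of 0.906. It was 1 of the 4 motifs in 1205, or 0.332%, that were lower by a ratio past 1.1, and none was higher by as much. The older Tcf12 motif MA0521.1 and Tcf3 motif MA0522.1 had ratios of 0.930 and 0.936. The TCF4 motifs MA0830.1 and MA0830.2 had ratios of 0.966 and 0.974, the TCF3 motifs MA0522.2 and MA0522.3 had 0.965 and 0.983, and the TCF12 motif MA1648.1 had 0.989. The 3 lowest belong to the motif cluster named for Myod1, whose 19 motifs had a median ratio of 0.926, and the other 5 to the cluster named for TCF3, whose 11 motifs had a median of 0.977. Over all motifs the median ratio was 0.998, the range 0.901 to 1.07, and 53.4% were under 1. Sites called bound for MA0521.2 numbered 2546 in WT and 2221 in Tcf4 cKO of 21532, or 11.8% and 10.3%, and for TCF4 MA0830.2 3167 and 3092 of 23625, or 13.4% and 13.1%. None of the 8 motifs analysed here was named for an Id gene.

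Genes that work with these factors were counted as lists. The shares over all regions, given above, were 0.601% higher and 1.09% lower in the limma test and 8.38% higher and 12.6% lower by over 0.5 in the authors' means, and the median difference over all regions was -0.10. Of 37 class II partners, 25 had 48 ATAC regions, of which none passed the limma test in either direction, while authors' means differed by over 0.5 in 4 higher and 5 lower, with a median difference of -0.07. Among them, regions of Myod1 (7.21 in WT and 6.32 in Tcf4 cKO) and Neurod6 (6.49 and 7.33) had the 2 largest differences. The list of HES, HEY and related genes also held Helt, Bhlhe40 and Bhlhe41. The 17 regions of 11 of its genes had 0 calls and a median difference of -0.16. By the authors' means 0 were higher and 3 lower by over 0.5, at Hes2 (6.74 and 5.56), Heyl (6.67 and 5.84) and the Hes1 start (9.57 and 8.95). Of 39 regions of 17 BMP-SMAD genes, with a median difference of -0.13, 2 rose and none fell. Both belonged to Bmpr1b, a type I BMP receptor. The region chr3:141981664-141982344 lay over an annotated transcript start, which was not checked to be the first start of the gene. WT had no peak there and Tcf4 cKO had 7.76 and 6.54 (log2 difference 2.92 ± 0.21, limma adjusted p = 0.0010). The other, chr3:141932998-141933699, had no peak in WT and 5.11 and 5.09 in Tcf4 cKO (2.44 ± 0.20, limma adjusted p = 0.0011). By the authors' means 4 BMP-SMAD regions were higher and 6 lower by over 0.5, and regions of Bmp2 (5.73 and 4.63) and Bmp4 (8.63 and 7.57) were among the lower ones. Of 40 regions of 12 E protein cofactors, with a median difference of -0.11, 1 rose and none fell: a distal region of the LIM-only gene Lmo4, with no peak in WT and 6.48 and 6.34 in Tcf4 cKO (2.77 ± 0.20, limma adjusted p = 0.0010). Regions of Ldb2, which binds LIM-only proteins (5.64 and 4.72), and Lmo1 (5.70 and 6.24) followed by authors' means, and 3 cofactor regions were higher and 5 lower by over 0.5. At the called Bmpr1b and Lmo4 regions, the size of the fitted difference depends on the value of 1 given to a missing peak.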

How the data were processed

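ATAC-seq and Cut&Tag libraries of WT, Tcf4 cKO and Tcf4-tag mice were grouped by their labels (18 libraries of 20 samples; single-cell samples were not used here). By the submitters' processing notes the authors trimmed reads with Trim Galore, aligned them to mm10 with Bowtie2 and called peaks per library with MACS2. In the deposited lists each peak has a fold enrichment (a ratio over local background), -log10 p and -log10 q. The authors' consensus table gives mean log2 accessibility per genotype. The authors' footprint table gives mean TOBIAS scores and counts of bound sites from merged alignments. Their fold change, p-value and FDR columns, and the differential binding score and p-value of the footprints, hold the study's own comparisons and were not used. No unassigned column of sample values was left out. No read counts were used, so depth is known only as peak numbers.

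Coordinates follow GRCm38 with GENCODE M21, and 709356 of 709410 peaks lay within the numbered chromosomes, X and Y. Histone regions were merged peaks found in at least 2 of 4 libraries, and ATAC regions were the consensus regions. The highest overlapping peak (for H3K27me3 the length-weighted mean, uncovered bases at 1) was taken as log2, a missing peak as 1, centred on medians of regions with a peak in all 4 libraries. limma 3.58.1 (R 4.3.3) with a trend tested Tcf4 cKO against WT, with Benjamini-Hochberg adjustment over all regions of an assay. The fit and the interval code were tested on simulated data. bedtools 2.31.1, samtools 1.23.1, pysam 0.24.0, pandas 2.3.3, numpy 2.4.6 and matplotlib 3.10.9 were used. All 7 members are described, and full values go to regions nearest each gene start, past the test, past 0.5 in the authors' means or with reproducible Tcf4. Lists name at most 3 genes by the size of the authors' difference. Members and lists were chosen with earlier results of these data known. Alternatives covered centring, quantile normalization, missing peaks, a -log10 q of 5, the trend, flanks, overlap, a replicate block and each library left out. The labels give replicates the numbers 1 and 2 and no shared animal or batch.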

Additional observations from a re-analysis of the deposited data

How the results depend on the processing

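The count of ATAC member regions past the test, 1 as reported, was 0 with quantile normalization (the Id3 region then at a log2 difference of -1.39), 2 where only regions with a peak in all 4 libraries were tested (Tcf3 at -12.7 kb, adjusted p = 0.039, and Id2 at -116.9 kb, adjusted p = 0.030, both in limma), 4 with peaks limited to a -log10 q of 5 or more (the strict setting), and 1 to 2 with 1 library left out. The second call came from Id2 at -143.3 kb without WT replicate 1 and from Tcf12 at +214.3 kb without Tcf4 cKO replicate 2. The 4 H3K4me1 calls became 0 with quantile normalization, 0 with peaks in all 4 libraries only, 2 in the strict setting and 0 to 3 with 1 library left out. The calls in the strict setting were Id4, higher in Tcf4 cKO, and another Tcf4 region, lower in Tcf4 cKO, and none of the original 4. The H3K27ac call became 0 under those 3 settings and 0 with any library left out. Over all regions most calls had a library without a peak, 508 of 542 for ATAC, 10627 of 10704 for H3K4me1 and 2411 of 2428 for H3K27ac. Over all regions the H3K4me1 calls became 0 with quantile normalization, 1 with peaks in all 4 libraries only, 4656 in the strict setting and 0 to 4932 with 1 library left out, and the H3K27ac calls became 0 in all of these. The 542 ATAC calls became 970 with peaks in all 4 libraries only, 1544 in the strict setting and 547 to 1216 with 1 library left out, and the 0 H3K27me3 calls became 1123 with no centring, 2823 with log2 of the fold enrichment plus 1, 1029 without a trend and 439 in the strict setting. The 0 H3K27me3 calls became 1, Id1, with no centring (limma adjusted p = 0.047), with log2 of the fold enrichment plus 1 (0.015) and without a trend (0.043), and the adjusted p ran from 0.015 to 0.25 over all settings in which that region was tested. ATAC regions with peaks in 1 genotype alone numbered 4 in the strict setting against 1, and 1 to 2 with 1 library left out. At a difference over 1 in the authors' means, 2 regions, both of Id2, passed against 5. Members whose covered length did not overlap numbered 1 for each of the 3 marks in the strict setting, against 2 for H3K4me1, 4 for H3K27ac and 2 for H3K27me3. H3K4me1 also gave 1 with no flank and 1 with 10 kb on each side, and H3K27me3 gave 4 with 10 kb. Leaving out 1 library gave 5 to 6 members for ATAC, 4 to 5 for H3K4me1, 4 to 6 for H3K27ac and 2 to 5 for H3K27me3. Reproducible Tcf4 regions numbered 5 against 8 in the strict setting, 10 with 10 kb on each side, and 11 to 23 when 1 library was taken alone. CAGCTG was in 3 regions within 150 bp of summits against 1, and 0 motifs passed a ratio of 1.2 against 1. Where no value above shows the cause, the cause was not tested.

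With a replicate block the calls were 1 for ATAC, 0 for H3K4me1, 0 for H3K27ac and 0 for H3K27me3, and over all regions 513, 0, 0 and 0. Same-numbered libraries did not deviate together (r of -0.01 for ATAC, -0.00061 for H3K4me1, 0.04 for H3K27ac and 0.03 for H3K27me3, across regions). Whether they shared an animal, a sort or a batch is not known from the labels. Read depth, known only as peak numbers, and 2 libraries per genotype limit every comparison.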
